A study of Homo sapiens with 4 samples.

Results

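RAB proteins are small GTPases of the RAS superfamily that mark the membranes of the secretory and endocytic pathways. Each cycles between a GTP-bound form, which recruits effector proteins to its membrane, and a GDP-bound form, which GDP dissociation inhibitors hold in the cytosol. Exchange factors and GTPase-activating proteins drive the switch. Several RABs act in autophagy: RAB1 and RAB33B in the formation of autophagosomes, and RAB7A in their maturation and fusion with lysosomes. LC3B itself is a ubiquitin-like protein. It is conjugated to lipid on autophagosomes, and a pool of it is nuclear.

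The RAB mRNAs were taken as all protein-coding genes in the deposited count table whose symbol is RAB, a number and at most 1 letter. This rule found 63 genes among 60676. It uses no measured value. The genes lie on 22 chromosomes, with at most 7 on one of them (chromosome 1).

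The study asked which mRNAs are recovered with LC3B. U2OS, a human line established from an osteosarcoma, was used, and RNA was recovered by immunoprecipitation from native (not crosslinked) nuclear lysate. The 4 libraries were the LC3B antibody pull-down, the IgG pull-down, which measures unspecific recovery, the LC3B input and the IgG input, both without antibody. The labels name no treatment or genetic change, and polyadenylated RNA was amplified with a kit for very low input. With 1 library a group, differences have no replicate check, and no test or p-value across samples is given. All intervals cover counting error only. They may be too narrow even for that, since amplified reads are not independent molecules.

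Total counts were 10456770 in the LC3B pull-down, 10000914 in the IgG pull-down, 10782146 in LC3B input and 10886762 in IgG input. Mitochondrial genes took 0.774% and 1.76% of the LC3B and IgG pull-downs, against 20.8% and 22.8% of the LC3B and IgG inputs. All CPM values below are therefore shares of the total count outside the mitochondrial chromosome. A read was found for 23915 genes in the LC3B pull-down, 14440 in the IgG pull-down, 23082 in LC3B input and 22947 in IgG input. The inputs carried the mesenchymal and bone-lineage mRNAs SPARC, VIM, RUNX2 and ALPL, and COL1A1 had 1367 reads in LC3B input and 1099 in IgG input, whereas COL1A2 had 0 and 2. Of the epithelial markers, KRT18 was abundant, and EPCAM had 128 and 153 reads and CDH1 25 and 17 in these inputs. The blood and liver markers PTPRC, CD3E, HBB and ALB had at most 5 reads in any library. The neural markers GFAP and SYP had 18 and 16 reads in LC3B input and 10 and 24 in IgG input.

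A gene was tested when it averaged at least 1 CPM over the 4 libraries, which 15431 genes and 51 of the 63 RAB genes did. Calls used the exact 95% counting interval of the fold: higher where the whole interval lay at or above 2, lower where it lay at or below 0.5. The 12 RAB genes below the filter were RAB3A, RAB3C, RAB3D, RAB6C, RAB19, RAB25, RAB33A, RAB37, RAB39A, RAB40A, RAB41 and RAB44. None of them had more than 13 reads in a library. RAB25, a RAB of polarised epithelia, had 0 reads in all 4, and 11 of the 12 had 0 reads in the IgG pull-down. Without the filter the same rule called 3 of them. RAB3D, of regulated exocytosis, had 10 reads with LC3B, 0 with IgG, 11 in LC3B input and 6 in IgG input. RAB40A had 12, 0, 5 and 4 in the same order. With 3 reads put in place of 0, they were 3.16-fold and 3.79-fold higher with LC3B than with IgG. RAB3D shares 3495 bases on the same strand with TMEM205, which had 838 reads with LC3B and 1384 with IgG. Their summed reads went the other way, with a fold of 0.580 (0.532 to 0.632) with LC3B over IgG. RAB37, also of regulated exocytosis, had 1 read with LC3B, 0 with IgG, 12 in LC3B input and 10 in IgG input, and was called lower in both pull-downs over their inputs.

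The family as a whole took a similar share of each library. RAB mRNAs held 0.428% of the LC3B pull-down (95% exact binomial interval 0.424 to 0.432), 0.387% of the IgG pull-down (0.383 to 0.391), 0.407% of the LC3B input (0.403 to 0.411) and 0.407% of the IgG input (0.402 to 0.411). Individual members moved far more than this sum. Of the 63 genes, 61 had a read in the LC3B pull-down, 43 in the IgG pull-down, 59 in LC3B input and 57 in IgG input.

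**Figure D1:**
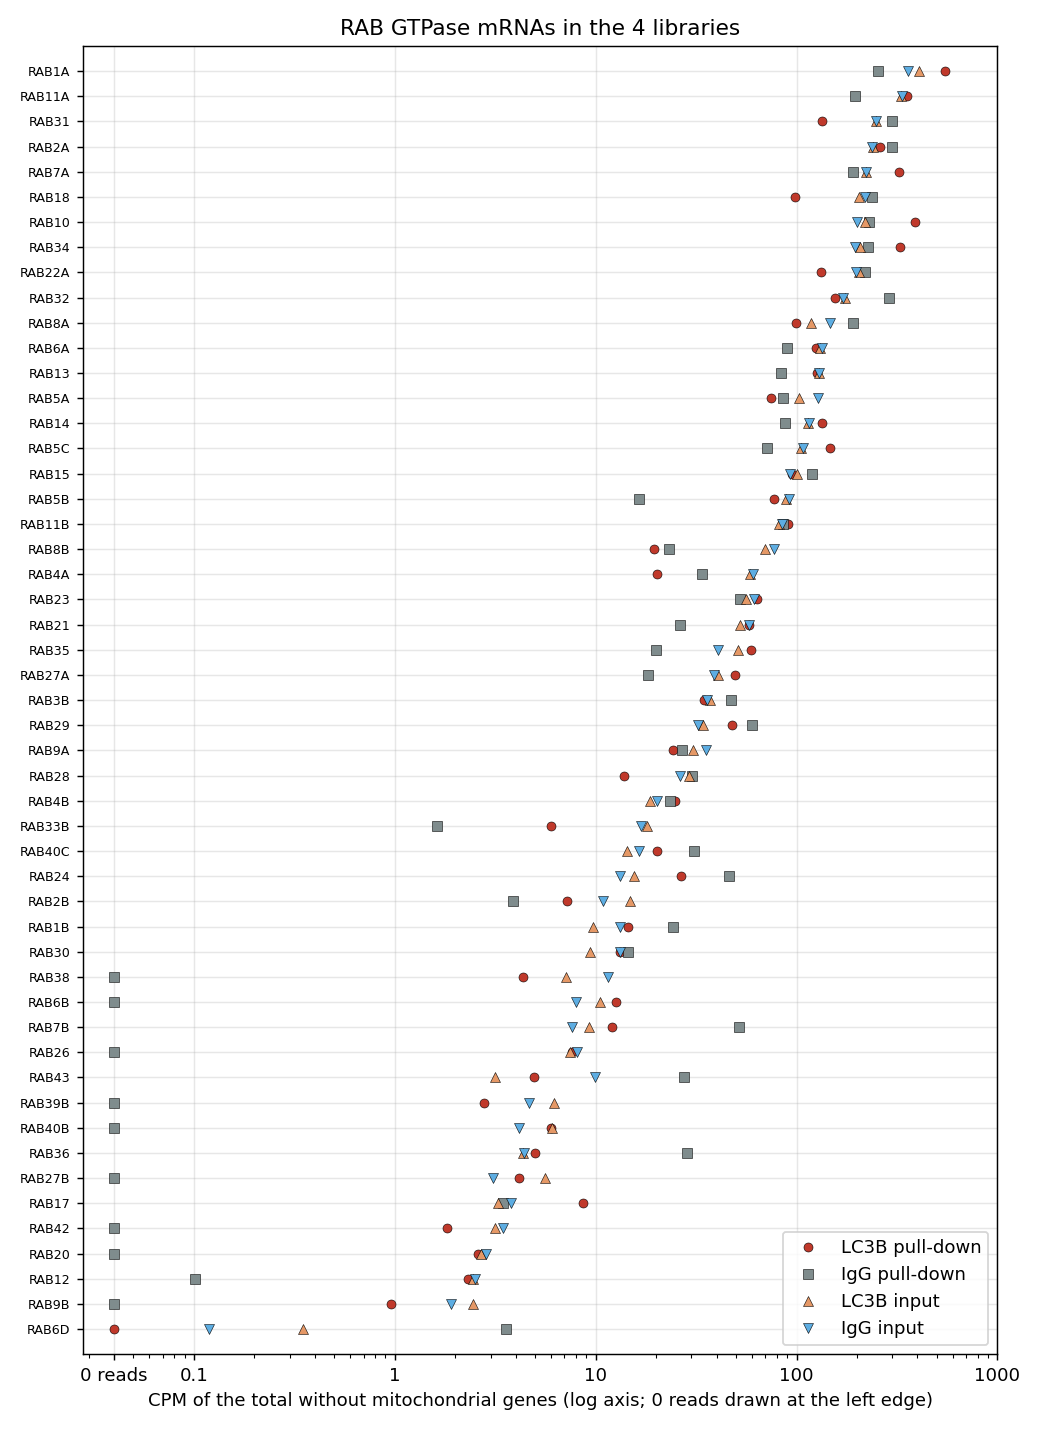
CPM of the 51 tested RAB mRNAs in the LC3B pull-down (circles), the IgG pull-down (squares), the LC3B input (upward triangles) and the IgG input (downward triangles), ordered by mean input level, on a log axis. The inputs lie close together at 30 CPM or more, the LC3B pull-down stays within 2-fold of its input for 41 members, and 9 members have 0 reads in the IgG pull-down, drawn at the left edge.

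Levels of different genes were compared on the deposited TPM, which divides by transcript length, rescaled without mitochondrial genes. In the inputs the family was dominated by few members: the 10 highest held 72.9% of the summed TPM of all 63. RAB11A, which directs recycling endosomes, led with a mean of 605 TPM over the LC3B and IgG inputs. It was followed by RAB31 (311 TPM), RAB1A (257), RAB2A (236), RAB32 (210), RAB34 (206), RAB18 (204), RAB10 (162), RAB13 (142) and RAB7A (137). RAB32 and RAB34 stood at 213 and 203 TPM in the LC3B input and at 208 TPM each in the IgG input, so their order is not settled, and RAB18 differed as little from RAB34. Of the other members, 20 lay between 10 and 100 TPM and 13 under 1 TPM.

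The inputs give the only view of how like libraries differ. Neither pull-down was repeated, so the spread between repeat pull-downs is not known. Over the 28 members of at least 30 CPM, the fold of the LC3B input over the IgG input ran from 0.801 for RAB8A to 1.26 for RAB35, with a median of 0.994 and an SD of 0.14 on the log2 scale. For the same 28 members the log2 SD was 0.89 for LC3B over IgG, 0.63 for LC3B over its input and 0.75 with IgG over the IgG input. Between the inputs 0 members were called higher (background 0.136% of all genes tested and 0.126% of protein-coding ones) and 1 lower (0.156% and 0.118%).

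That member was RAB43, a Golgi RAB, with 27 reads in LC3B input and 83 in IgG input, a fold of 0.320 (95% counting interval 0.199 to 0.499). Its locus is shared on the same strand with the read-through gene ISY1-RAB43, which had 77 reads in LC3B input and 28 in IgG input. Summed over both genes the inputs held 104 and 111 reads, a fold of 0.922 (0.699 to 1.22). The sum did not differ beyond counting error, and the RAB43 count alone is uncertain.

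Setting the LC3B against the IgG pull-down asks which RAB mRNAs were recovered above background. It called 15 of the 51 members higher, 29.4%, where the background was 33.8% of all genes tested and 33.6% of protein-coding ones. It called 6 lower, 11.8%, where the backgrounds were 9.45% and 8.91%. Both shares were near those of all genes, as was the median log2 ratio, 0.48 for the members and 0.41 for all genes tested. The members' median turned to -0.028 with a filter of 5 CPM, against 0.18 for all genes. Called higher were RAB1A, RAB5B, RAB6B, RAB9B, RAB12, RAB20, RAB26, RAB27A, RAB27B, RAB33B, RAB35, RAB38, RAB39B, RAB40B and RAB42, and called lower were RAB6D, RAB7B, RAB18, RAB31, RAB36 and RAB43.

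No RAB mRNA passed the threshold upward in the LC3B pull-down over the LC3B input. Called higher were 0 of 51 members, where the background was 1.4% of all genes tested and 1.25% of protein-coding ones. Called lower were 3 (RAB4A, RAB8B and RAB33B), 5.88% against backgrounds of 4.48% and 4.78%. The median log2 ratio was -0.02 for the members and 0.01 for all genes tested. In 41 of the 51 the fold lay between 0.5 and 2. Accordingly 0 members were called higher over IgG and over the LC3B input at once, as 0.667% of all genes tested were. The only point fold of 2 or more was that of RAB17, an epithelial RAB of recycling endosomes, with 90 reads with LC3B and 28 in LC3B input (2.65, 1.71 to 4.20). RAB17 had 34 reads with IgG and 32 in IgG input, so that its fold over the IgG pull-down was 2.51 (1.67 to 3.84), and neither was called.

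The IgG pull-down departed further from its input. It called 13 of 51 members lower, 25.5% against 33.6% of all genes tested and 33.9% of protein-coding ones, and 5 higher, 9.80% against 9.69% and 9.02%. The median log2 ratio was -0.38 for the members and -0.43 for all genes tested. Of the 15 members called higher with LC3B over IgG, 12 were among the 13 lower with IgG than in the IgG input. The comparisons share the IgG pull-down, so these counts are not independent. This overlap was not computed for all genes tested, so it does not set RAB mRNAs apart. Over the LC3B input the same 15 ranged from 0.331 (RAB33B) to 1.36 (RAB1A).

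**Figure D2:**
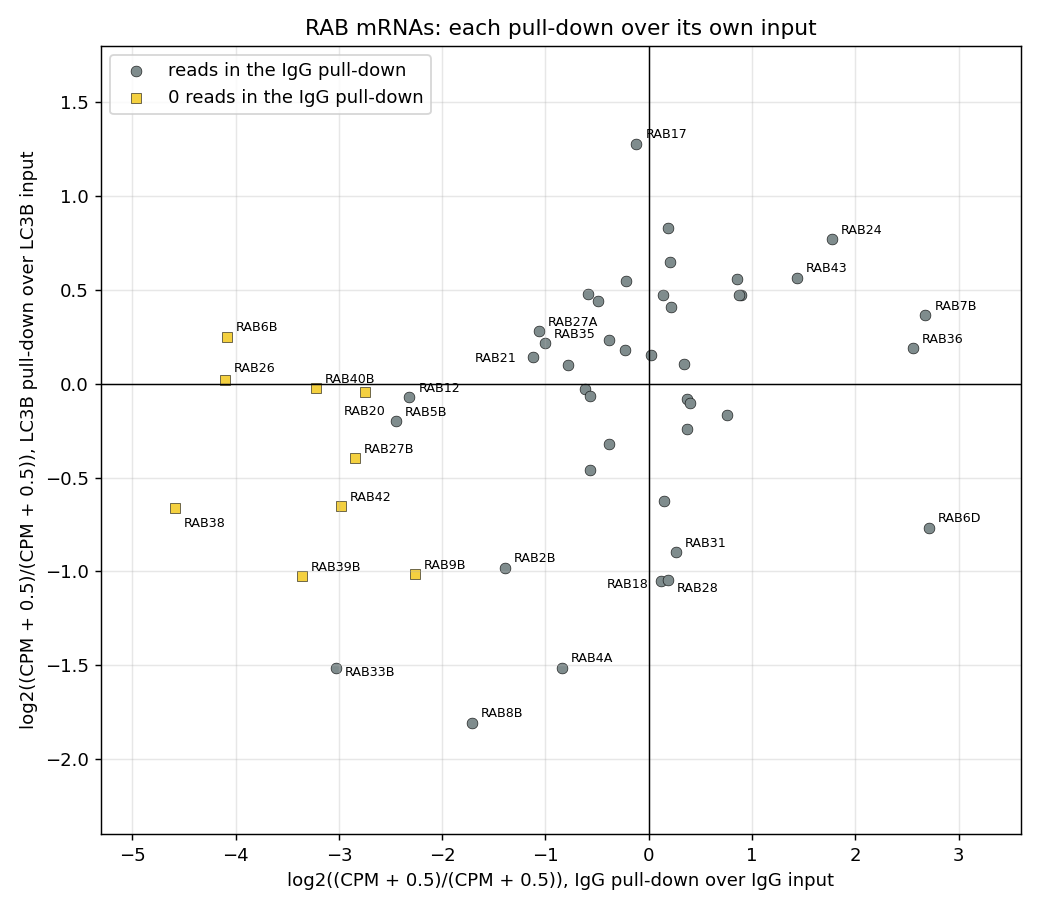
log2 ratio of each tested RAB mRNA in the LC3B pull-down over its input (vertical) against the IgG pull-down over its input (horizontal), with 0.5 CPM added, with squares for the 9 members without reads in the IgG pull-down. The IgG axis spreads from RAB38 on the left to RAB6D and RAB7B on the right, while most members stay within 1 log2 unit on the LC3B axis.

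Much of this rested on reads missing from the IgG pull-down. Of the 51 members, 9 (17.6%) had 0 reads there, as did 19.7% of all genes tested. They were RAB6B, RAB9B, RAB20, RAB26, RAB27B, RAB38, RAB39B, RAB40B and RAB42, and all 9 belonged to the 15 called higher. These members passed the filter through libraries other than the IgG pull-down, so this overlap was largely set in advance. The number of members without IgG reads depends on the filter. At 5 CPM or more it was 3 of 42, and without a filter 19 of 62. The shares of all genes under these filters are not given here, so these numbers do not set RAB mRNAs apart. A count of 0 allows up to 0.305 CPM in the IgG pull-down (3 reads). The 9 members had 10 to 131 reads with LC3B and 16 to 97 reads in the inputs. With 3 reads put in place of 0, they were from 3.16-fold (RAB9B) to 41.3-fold (RAB6B) higher with LC3B than with IgG. These values leave out the counting error of the LC3B reads and are not lower limits. The exact counting interval began at 2.12 for RAB9B and 33.2 for RAB6B. Over the LC3B input their folds ran from 0.392 (RAB9B) to 1.20 (RAB6B), all uncalled.

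RAB6B, a Golgi RAB best known from neurons, had 131 reads with LC3B, 0 with IgG, 90 in LC3B input and 67 in IgG input. RAB26, known from secretory granules and synaptic vesicles, had 79 reads with LC3B, 0 with IgG, and 64 and 68 in the LC3B and IgG inputs. Its fold over IgG was 24.9 with 3 reads put in place of 0. RAB38 is a close relative of RAB32 in the biogenesis of lysosome-related organelles. It had 45 reads with LC3B, 0 with IgG, and 61 and 97 in the LC3B and IgG inputs. With 3 reads put in place of 0, its fold over IgG was 14.2. In all 3 the LC3B pull-down lay close to or below the inputs and only the IgG pull-down was empty. The tenth low member, RAB12, which directs receptors to lysosomes, had 24 reads with LC3B, 1 with IgG and 21 in each input. Its fold over IgG was 22.7 (3.71 to 934), and the wide interval reflects the single IgG read.

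Calls were most frequent among the members of lowest input level. Among 15 members under 10 CPM in the inputs, 10 were called higher and 4 lower with LC3B over IgG, shares of 66.7% and 26.7%, where all genes of this class showed 49.1% and 12.9%. Among 8 members at 10 to 30 CPM, 1 was called higher and 0 lower, against 37.4% and 8.10% of all genes in the class. At 30 to 100 CPM 3 of 12 were higher and 0 lower, against 20.9% and 6.56%, and at 100 CPM or more 1 of 16 was higher and 2 lower, against 8.56% and 7.21%. In this last class the median log2 ratio was 0.50 for the RAB members and -0.07 for all genes. Such small classes do not show that RAB mRNAs differ from other genes of like level.

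**Figure D3:**
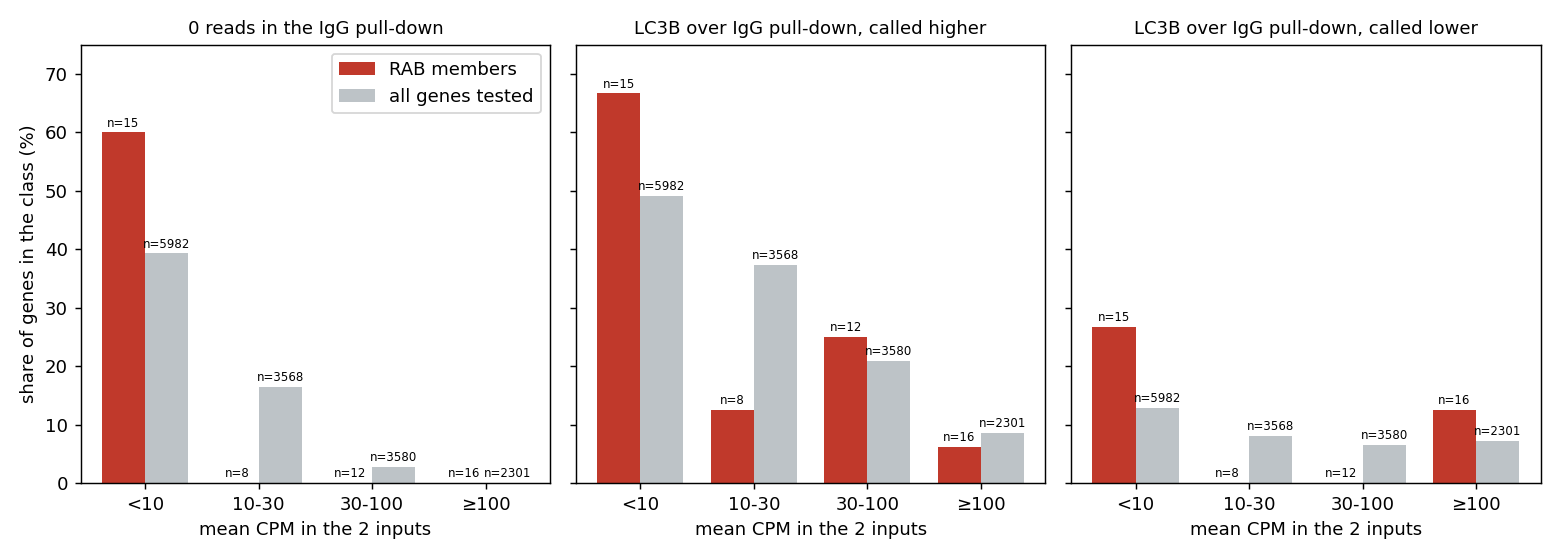
Share of genes, in percent, with 0 reads in the IgG pull-down, called higher and called lower in the LC3B over the IgG pull-down, by mean input CPM, for RAB members (red bars) and all genes tested (grey bars), with the number of genes above each bar. Empty IgG counts were found in 9 of 15 RAB members under 10 CPM and in 0 of the members above. Among all genes tested the shares were 39.3% under 10 CPM, 16.5% at 10 to 30, 2.85% at 30 to 100 and 0% above.

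The early secretory pathway is served by RABs of the endoplasmic reticulum and Golgi, of which 13 of 18 listed members were tested. Here 4 were called higher and 3 lower with LC3B over IgG, 30.8% and 23.1% against 33.8% and 9.45% of all genes tested, with a median log2 ratio of 0.48. These backgrounds apply to the counts of each group that follows. RAB1A (ENSG00000138069, chromosome 2, 65070696 to 65130331, minus strand, hg38), which controls transport from the endoplasmic reticulum to the Golgi, was the most abundant call. It had 551 CPM in the LC3B pull-down, 254 in the IgG pull-down, 406 in LC3B input and 359 in IgG input. It was thus highest with LC3B and lowest with IgG, with a fold of 2.17 over IgG (2.07 to 2.27) and of 1.36 over the LC3B input (1.30 to 1.41). The call over IgG was narrow and was lost with median-of-ratios scaling and in TPM.

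RAB18 (chromosome 10, 27504174 to 27542237, plus strand), which acts at the endoplasmic reticulum and on lipid droplets, showed the reverse order. It had 98.2 CPM with LC3B, 238 with IgG, 204 in LC3B input and 218 in IgG input. The LC3B library stood alone below the other 3, with a fold of 0.413 (0.384 to 0.445) over IgG and of 0.482 (0.446 to 0.521) over the LC3B input, the second uncalled. RAB33B (chromosome 4, 139453232 to 139476609, plus strand) is a Golgi RAB that binds ATG16L1, a component of the LC3 conjugation machinery. It had 62 reads with LC3B, 16 with IgG, 154 in LC3B input and 142 in IgG input. Both pull-downs thus lay below both inputs. The fold was 3.67 over IgG (2.09 to 6.81) and 0.331 over the LC3B input (0.243 to 0.448), so that RAB33B was called higher in one comparison and lower in the other. Median-of-ratios scaling ended the first call, and totals with mitochondrial genes the second. In TPM the fold over IgG was 8.22 and that of IgG over its input 0.046, against 0.0964 in counts.

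The remaining abundant members of the group were uncalled. RAB2A, which acts between the endoplasmic reticulum and the Golgi and in fusion with lysosomes, had 259 CPM with LC3B, 300 with IgG, 240 in LC3B input and 237 in IgG input (fold over IgG 0.865, 0.820 to 0.911). RAB34, which acts in lysosome positioning and cilium formation, had 327 CPM with LC3B, 226 with IgG, 208 in LC3B input and 195 in IgG input, a fold of 1.45 (1.37 to 1.53) over IgG and 1.57 (1.48 to 1.66) over its input. RAB6A, which returns cargo from endosomes to the Golgi, had 125 CPM with LC3B, 89.6 with IgG, 130 in LC3B input and 133 in IgG input. RAB30, a Golgi RAB, stood at 0.907 (0.712 to 1.15) over IgG. RAB2A, RAB34, RAB6A and RAB30 all stayed between 0.5 and 2 over IgG.

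Early and recycling endosomes are the site of the largest group tested, 14 of 15 listed members, with 3 called higher and 1 lower with LC3B over IgG (21.4% and 7.14%) and a median log2 ratio of 0.74. RAB5B (ENSG00000111540, chromosome 12, 55973913 to 55996683, plus strand), an early endosome RAB, gave the largest fold among members of at least 10 CPM. It had 77.5 CPM with LC3B, 16.5 with IgG, 89.0 in LC3B input and 92.2 in IgG input. The IgG library alone was low: the fold was 4.70 over IgG (3.96 to 5.60) and 0.871 over the LC3B input (0.788 to 0.963), while the IgG pull-down stood at 0.179 (0.150 to 0.212) of its input. RAB35, which acts in recycling and cytokinesis, had 59.4 CPM with LC3B, 19.95 with IgG, 51.0 in LC3B input and 40.6 in IgG input, a fold of 2.98 (2.53 to 3.51) over IgG.

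RAB31 (chromosome 18, 9708275 to 9862551, plus strand), which carries cargo between the trans-Golgi network and endosomes, was the second member by TPM in the inputs and was called lower. It had 133 CPM with LC3B, 300 with IgG, 249 in LC3B input and 250 in IgG input. As with RAB18, the LC3B library stood below the other 3, at 0.444 of IgG (0.416 to 0.473) and 0.536 of its input (0.5002 to 0.574). The call over IgG was lost in TPM. RAB22A, a close relative of RAB31, had 133 CPM with LC3B, 219 with IgG, 205 in LC3B input and 197 in IgG input, and its fold of 0.607 (0.567 to 0.650) over IgG was uncalled.

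RAB4A, of rapid recycling, had 20.2 CPM with LC3B, 33.8 with IgG, 58.6 in LC3B input and 60.8 in IgG input. Both pull-downs lay below both inputs, at 0.345 (0.292 to 0.406, called) for LC3B and 0.556 (0.483 to 0.639, uncalled) for IgG. The LC3B call was lost with totals that include mitochondrial genes. RAB11A, the most abundant member by TPM, had 356 CPM with LC3B, 195 with IgG, 332 in LC3B input and 336 in IgG input. Its fold of 1.82 (1.73 to 1.93) over IgG was uncalled, and over its input it stood at 1.07 (1.02 to 1.13). RAB21, which carries integrins, and RAB5C had folds over IgG of 2.21 (1.91 to 2.57) and 2.05 (1.88 to 2.25), just under the call, and RAB14 of 1.52 (1.40 to 1.66).

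Late endosomes, lysosomes and lysosome-related organelles, where autophagosomes end, had 9 of 9 listed members tested. With LC3B over IgG 3 were called higher and 1 lower (33.3% and 11.1%), and the median log2 ratio was -0.14. RAB7A (ENSG00000075785, chromosome 3, 128726183 to 128814798, plus strand), the main RAB of late endosomes, had 325 CPM with LC3B, 191 with IgG, 222 in LC3B input and 223 in IgG input. It was highest with LC3B, at 1.70 (1.61 to 1.799) over IgG and 1.46 (1.38 to 1.55) over its input, both uncalled. RAB9A, which returns receptors from late endosomes to the Golgi, had 24.4 CPM with LC3B, 27.0 with IgG, 30.6 in LC3B input and 35.5 in IgG input. It did not differ between the pull-downs beyond counting error (0.904, 0.758 to 1.08).

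RAB32, which acts in melanosome biogenesis and at mitochondria, had 155 CPM with LC3B, 290 with IgG, 174 in LC3B input and 171 in IgG input. The IgG library alone was high, at 1.70 (1.59 to 1.81) of its input, and the fold over IgG of 0.535 (0.503 to 0.569) was uncalled. RAB24, an atypical RAB linked to autophagy, had 26.7 CPM with LC3B, 46.3 with IgG, 15.5 in LC3B input and 13.2 in IgG input. Both pull-downs lay above both inputs, at 1.73 (1.40 to 2.14) for LC3B and 3.51 (2.84 to 4.36, called) for IgG. On the same strand 2284 bases of RAB24 overlap MXD3, which had more reads than RAB24 in all 4 libraries. Summed with MXD3, the IgG pull-down stood at 1.34 (1.21 to 1.48) of its input and the call was lost. The order of the pull-downs also turned, since the sum stood at 1.30 (1.20 to 1.41) with LC3B over IgG and RAB24 alone at 0.576 (0.495 to 0.671). RAB29, a RAB of the Golgi and lysosomes, stood at 0.787 (0.697 to 0.889) over IgG.

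Delivery to the plasma membrane and secretion had 9 of 13 listed members tested, with 3 higher (33.3%) and 0 lower with LC3B over IgG and a median log2 ratio of 0.59. RAB27A, which docks secretory granules and exosome-bearing endosomes, had 49.4 CPM with LC3B, 18.2 with IgG, 40.6 in LC3B input and 38.7 in IgG input. In these counts the IgG library was low, and the fold over IgG was 2.71 (2.28 to 3.24). RAB27A shares 1930 bases on the same strand with PIGBOS1, and the fold of their summed reads was 1.92 (1.77 to 2.09), so the call was lost. The sum stood above its input in both pull-downs, at 2.003 (1.83 to 2.19) for LC3B and 1.20 (1.08 to 1.34) for IgG, so that the low IgG level of RAB27A was not seen in it. RAB10, which acts in insertion of the glucose transporter GLUT4, had 391 CPM with LC3B, 229 with IgG, 219 in LC3B input and 201 in IgG input. Its folds of 1.71 (1.62 to 1.799) over IgG and 1.78 (1.68 to 1.88) over its input were uncalled. RAB13, of epithelial junctions, had 127 CPM with LC3B, 84.1 with IgG, 130 in LC3B input and 129 in IgG input.

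RAB8B, a RAB of polarised secretion, had 19.5 CPM with LC3B, 23.2 with IgG, 69.3 in LC3B input and 77.1 in IgG input. It was called lower in both pull-downs over their inputs, at 0.281 (0.238 to 0.330) for LC3B and 0.301 (0.258 to 0.351) for IgG. The pull-downs did not differ beyond counting error in counts (0.839, 0.691 to 1.02), whereas in TPM RAB8B stood 2.14-fold higher with LC3B than with IgG. RAB3B and RAB15 were above IgG input level in the IgG pull-down, at 1.32 (1.14 to 1.53) and 1.29 (1.18 to 1.42), and neither was called.

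The last group, cilium, ubiquitin ligase and less studied members, had 5 of 7 tested, with 2 higher, 40% (RAB40B and RAB42, both without IgG reads), and 0 lower. RAB23, a negative regulator of Hedgehog signalling, had 63.6 CPM with LC3B, 52.1 with IgG, 56.2 in LC3B input and 61.4 in IgG input. RAB28, known from photoreceptor cilia, had 13.9 CPM with LC3B, 30.03 with IgG, 29.1 in LC3B input and 26.4 in IgG input, with the LC3B library low at 0.462 (0.376 to 0.566) of IgG, uncalled. RAB40C, a substrate receptor of a cullin ubiquitin ligase, stood at 0.655 (0.547 to 0.784).

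**Figure D4:**
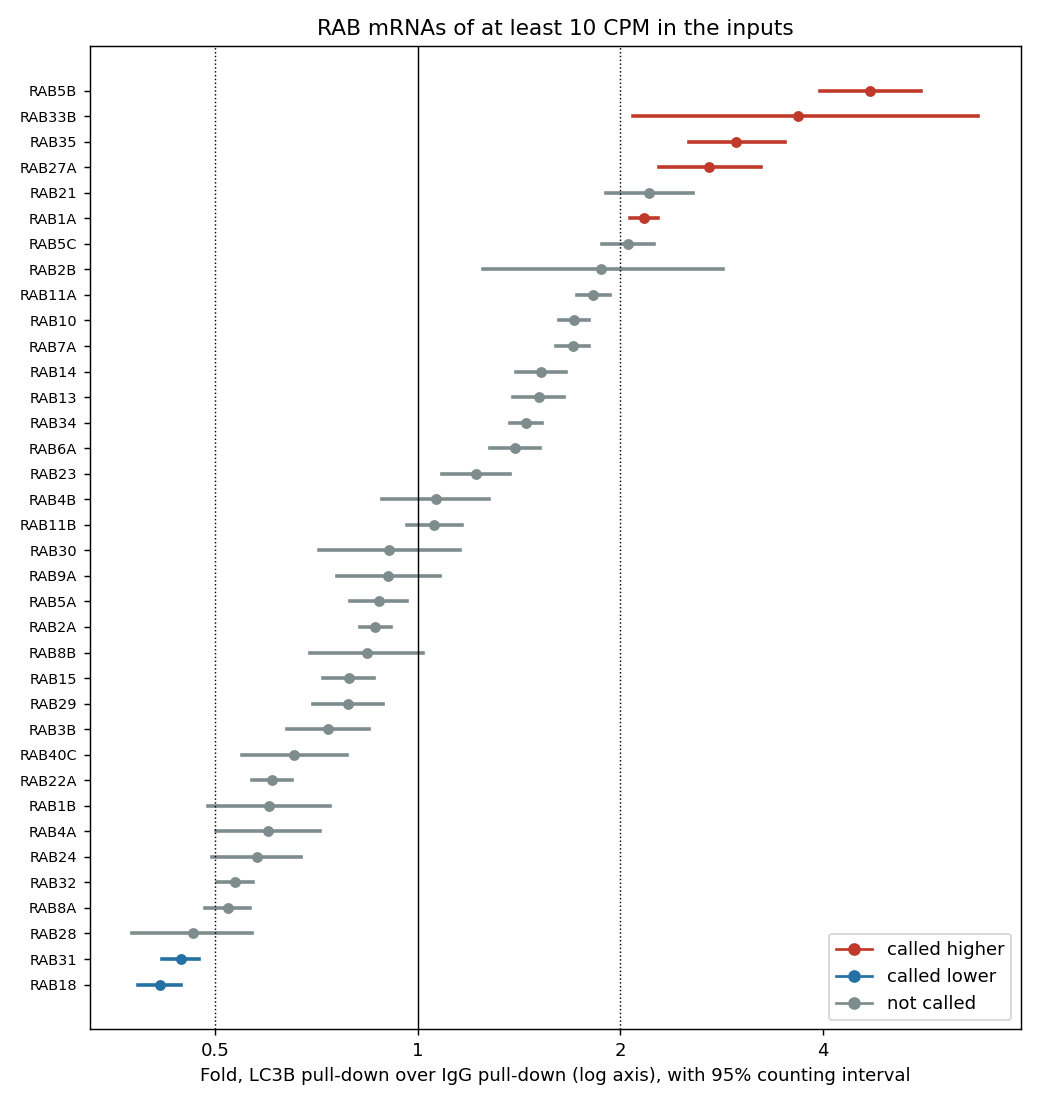
Fold of the LC3B over the IgG pull-down (log axis) for the 36 RAB mRNAs of at least 10 CPM in the inputs, with 95% counting intervals and dotted lines at 0.5 and 2. RAB5B at 4.70, RAB33B, RAB35, RAB27A and RAB1A were called higher, and RAB31 and RAB18 lower.

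RAB7B, RAB36, RAB43 and RAB6D, all under 10 CPM in the inputs, were called lower with LC3B than with IgG and higher with IgG than in the IgG input. RAB7B, which acts between late endosomes and the Golgi, had 125 reads with LC3B, 506 with IgG, 79 in LC3B input and 64 in IgG input. RAB36, a Golgi RAB, had 52 reads with LC3B, 279 with IgG and 37 in each input. In both the IgG library stood far above the other 3, at 6.76 (5.21 to 8.92) and 6.45 (4.57 to 9.35) of its input. RAB43 had 51 reads with LC3B, 271 with IgG, 27 in LC3B input and 83 in IgG input, and the IgG pull-down was still 2.44-fold (1.962 to 3.06) above its input when the read-through reads were added. That sum was not called, nor was its fold with LC3B over IgG (0.466, 0.382 to 0.566). RAB6D, a close relative of RAB6A and RAB6C, had 0 reads with LC3B, 35 with IgG, 3 in LC3B input and 1 in IgG input, and passed the filter through the IgG library. Having passed through the library where it is high, it had to differ, and both its calls were lost with totals that include mitochondrial genes. Its reads may be shared with its relatives.

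RABs with the same number are close paralogs with related functions, and in some families their folds over IgG lay apart. RAB1A stood at 2.17 over IgG, and RAB1B, with 151 reads with LC3B and 238 with IgG, at 0.601 (0.487 to 0.740). RAB7A stood at 1.70 and RAB7B at 0.234 (0.191 to 0.285, called lower). Within the RAB5 family RAB5A stood at 0.874 (0.792 to 0.964), with 75.1 CPM with LC3B, 85.9 with IgG, 103 in LC3B input and 128 in IgG input, while RAB5B stood at 4.70 and RAB5C at 2.05. The counting intervals of these pairs do not overlap, but with 1 library a group the differences were not tested. Over the LC3B input the folds of RAB1A (1.36, 1.30 to 1.41) and RAB1B (1.498, 1.14 to 1.98) overlapped, as did those of RAB7A (1.46, 1.38 to 1.55) and RAB7B (1.30, 0.975 to 1.75). Over the IgG input, the IgG pull-down stood at 0.709 for RAB1A and 1.83 for RAB1B, and at 0.859 for RAB7A and 6.76 for RAB7B. In TPM the fold of RAB5A over IgG was 1.05, on the other side of 1.

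Other families lay closer in the point folds of the counts or were split by the empty IgG counts. RAB11A and RAB11B stood at 1.82 and 1.06 (0.963 to 1.16), RAB2A and RAB2B at 0.865 and 1.87 (1.25 to 2.84), RAB4A and RAB4B at 0.599 (0.501 to 0.714) and 1.06 (0.886 to 1.27), and RAB8A and RAB8B at 0.522 (0.483 to 0.563) and 0.839. Within each of these pairs the counting intervals do not overlap either. In TPM RAB4A and RAB4B stood at 0.361, past the lower threshold, and 1.29. RAB2A and RAB2B stood at 1.07 and 3.32 in TPM, and RAB8A and RAB8B at 0.604 and 2.14. These members lay further apart in TPM than in counts. RAB6B, RAB9B, RAB27B and RAB40B had no IgG reads, whereas their abundant relatives RAB6A, RAB9A, RAB27A and RAB40C had 880, 265, 179 and 302. In each family with 2 or more tested members, the one of the highest input level was read in all 4 libraries.

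**Figure D5:**
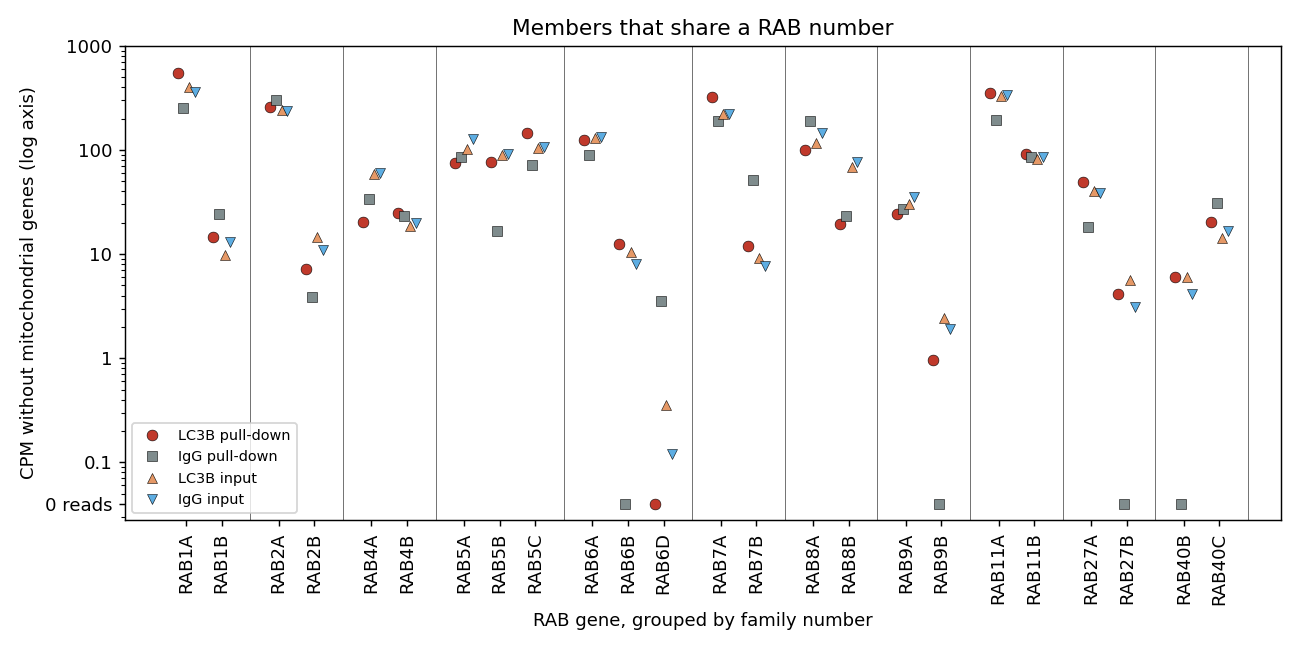
CPM (log axis) of the tested RAB genes that share a number, in the LC3B pull-down (circles), the IgG pull-down (squares), the LC3B input (upward triangles) and the IgG input (downward triangles). RAB5B is low only in the IgG pull-down, RAB7B is high only there, and RAB6B, RAB9B, RAB27B and RAB40B have 0 reads there.

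All 4 libraries enter an input-corrected ratio, in which the LC3B fold over input is divided by the IgG fold over input, with 0.5 added to each count. It called 12 members higher and 5 lower, 34 being uncalled, where 29.1% and 7.58% of all genes tested were called. Of the 12, RAB6B, RAB20, RAB26, RAB27B, RAB38, RAB39B, RAB40B and RAB42 had 0 IgG reads. Their ratios, from 40.3 (RAB42) to 189 (RAB6B), rest on the added 0.5. RAB12 had 1 IgG read (15.7, 2.72 to 90.8). Among members of at least 10 CPM the ratio was called higher for RAB5B (4.86, 3.99 to 5.91), RAB27A (2.58, 2.05 to 3.24) and RAB21 (2.43, 2.004 to 2.95), and lower for RAB18 (0.443, 0.401 to 0.489) and RAB31 (0.446, 0.408 to 0.486). For RAB27A the ratio was not computed from the reads summed with PIGBOS1, and its call over IgG was lost in that sum. RAB1A (1.91, 1.79 to 2.05), RAB35 (2.36, 1.91 to 2.93) and RAB33B (3.36, 1.87 to 6.06) were not called on this measure.

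The deposited values also allow a rough transcript length, as the ratio of input CPM to input TPM, set relative to the median gene tested. Among tested members it ran from 0.34 for RAB11A to 7.34 for RAB3B, with a median of 0.95. Across the 51 members, which are not independent replicates and share 4 libraries, the rank correlation of this length with the log2 ratio was -0.15 for LC3B over its input and 0.12 for IgG over its input. Over all genes with a length it was -0.24 and -0.25 (n = 15409). These weak values are a description only.

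Overlaps and pseudogenes limit some counts, because the strand setting of the counting is not given in the sources used here. Of the 63 RAB genes, 44 overlap another annotated gene, 19 on the same strand and 38 on the opposite one, and 10 overlap a coding gene on the same strand. The 18 annotated RAB pseudogenes held at most 2 reads in a library. RAB14 overlaps GSN on the opposite strand, which had 1300 reads with LC3B, 1048 with IgG, 513 in LC3B input and 477 in IgG input, and the part of this in the RAB14 count was not tested. RAB8A overlaps the long non-coding RNA AC008894.2 in the same way, with 451, 845, 499 and 553 reads in that order of libraries. RAB23 shares 2842 bases with BAG2 on the opposite strand, which had 2003, 686, 1667 and 1785 reads in that order. The part of the BAG2 reads in the RAB23 count was not tested. RAB1A, RAB33B and RAB35, called higher over IgG, overlap opposite-strand genes with 0 IgG reads. CEP68, over RAB1A, had 174 reads with LC3B, 161 in LC3B input and 143 in IgG input. AC097376.3, over RAB33B, had 94, 134 and 117, and AC004812.2, over RAB35, had 127, 124 and 111. RAB6B, RAB27A and RAB42, also called higher, overlap SRPRB, PIGB and TAF12 in this way, which had 116, 59 and 577 IgG reads. Their part in the RAB counts was not tested.

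The proteins that act on RABs were examined as 111 genes in 4 groups, of which 110 were matched and 108 tested. With LC3B over IgG 48 were called higher and 9 lower, shares of 44.4% and 8.33% against backgrounds of 33.8% and 9.45%, and the median log2 ratio was 0.82. Over the LC3B input 0 were higher, against 1.4% of all genes, and 6 lower, 5.56% against 4.48%. With IgG over its input 7 were higher, 6.48% against 9.69%, and 53 lower, 49.1% against 33.6%. Empty IgG counts were found for 29 of the 108, 26.9% against 19.7% of all genes. As for the RAB genes, no member of the list was called higher over both IgG and the LC3B input.

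Prenylation and membrane extraction had 7 of 7 genes tested, 3 higher and 1 lower with LC3B over IgG, 42.9% and 14.3% against 33.8% and 9.45% of all genes. RABGGTA is a subunit of the transferase that prenylates RABs. It had 239 reads with LC3B, 0 with IgG, 140 in LC3B input and 158 in IgG input. Its counting interval over IgG began at 60.9. CHM, the RAB escort protein mutated in choroideremia, had 112 reads with LC3B, 0 with IgG, 222 in LC3B input and 200 in IgG input. Its counting interval over IgG began at 28.3. GDI2, an inhibitor that extracts RABs from membranes, had 2466 reads with LC3B, 676 with IgG, 2698 in LC3B input and 2651 in IgG input, a fold of 3.45 (3.17 to 3.77). The LC3B library lay closer to its input, at 0.753 (0.712 to 0.795), and the IgG library stood apart.

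Exchange factors had 30 genes tested, 14 higher and 3 lower with LC3B over IgG, 46.7% and 10% against the same backgrounds. DENND5A, an exchange factor of the DENN family, had 360 reads with LC3B, 0 with IgG, 305 in LC3B input and 285 in IgG input. Its counting interval over IgG began at 91.9. TRAPPC10, of a tethering complex, stood at 0.286 (0.238 to 0.342) and DENND2B at 0.301 (0.261 to 0.346). CCZ1, part of the exchange factor for RAB7, was the one called lower over the LC3B input, at 0.387 (0.363 to 0.413), and it has a near-identical copy that may share its reads.

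GTPase-activating proteins had 33 genes tested, 17 higher and 1 lower, 51.5% and 3.03% against 33.8% and 9.45%. TBC1D13 and TBC1D25, the second of which binds LC3-family proteins, had 370 and 247 reads with LC3B and 0 with IgG. Their counting intervals over IgG began at 94.5 and 62.9. TBC1D23 was lower both over IgG, at 0.300 (0.263 to 0.343), and over the LC3B input, at 0.357 (0.311 to 0.410).

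Effectors had 38 of 40 genes tested, 14 higher and 4 lower with LC3B over IgG, 36.8% and 10.5% against 33.8% and 9.45%. RAB11FIP1, an effector of RAB11, had 483 reads with LC3B, 1 with IgG, 348 in LC3B input and 339 in IgG input, a fold of 457 (81.7 to 18101) that rests on the single IgG read. BICD2, a dynein adaptor of RAB6, had 181 reads with LC3B and 0 with IgG. Its counting interval over IgG began at 46.0. FYCO1, which links RAB7 and LC3 to kinesin, had 28 reads with LC3B, 169 with IgG, 35 in LC3B input and 26 in IgG input, a fold of 0.157 (0.101 to 0.235). VPS39, a subunit of the tether that RAB7 recruits to lysosomes, stood at 0.234 (0.198 to 0.276). Over the LC3B input 4 effectors were lower: APPL1 at 0.237 (0.197 to 0.283), GCC2 at 0.262 (0.232 to 0.295), RABEP1 at 0.291 (0.256 to 0.330) and GOLGA5 at 0.314 (0.269 to 0.364).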

How the data were processed

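Per the file headers, the deposited count table holds raw reads for each Ensembl gene; commas between digits were removed. The authors' deposited TPM, so named in the file headers, were rescaled here without mitochondrial genes. The submitters' processing notes name cutadapt 2.8, STAR 2.7.1a and hg38. How reads were counted (tool, annotation, strand, duplicates, multiple hits) is not given in the sources used here. Folds of shares of the total without mitochondrial genes were given exact conditional binomial (Clopper-Pearson) 95% intervals (Python 3.11.15, scipy 1.17.1), and the calling was tested on simulated data. Log2 ratios add 0.5 CPM. Members given in full were those called over IgG at 10 CPM or more in the inputs or over the LC3B input, the 10 of highest input TPM, and RAB1A, RAB5A, RAB7A, RAB9A, RAB11A, RAB24, RAB32 and RAB33B, known from endosomal and autophagic traffic. Others, such as RAB7B or RAB17, were picked after their values were seen. The members and lists were chosen with earlier results of these data known. Some genes that met the rule for named genes are not reported here. No sequence is printed. Alternatives were other totals and scalings (trimmed mean and median of ratios, from their published definitions), filters, call rules, pseudocounts and the deposited TPM.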

Additional observations from a re-analysis of the deposited data

Results flagged for a closer look

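For 13 RAB mRNAs the LC3B pull-down and the IgG pull-down lay on opposite sides of their own inputs, with both counting intervals excluding 1. With 1 library each, the difference was not tested across samples. The share of all genes tested that lay on opposite sides was not computed. The count therefore does not set RAB mRNAs apart from other genes. Some of the 13, among them RAB8A, RAB14 and RAB23, overlap opposite-strand genes whose part in their counts was not tested. The value given is the LC3B fold over input divided by the IgG fold over input, from the counts. It was above 1 for 8 members: RAB27A (2.58), RAB35 (2.36), RAB5C (2.10), RAB1A (1.91), RAB11A (1.85), RAB7A (1.71), RAB14 (1.54) and RAB23 (1.33). It was below 1 for 5 members: RAB8A (0.651), RAB22A (0.584), RAB32 (0.525), RAB31 (0.446) and RAB18 (0.443). RAB1A stood at 1.36 of its input with LC3B and 0.709 with IgG, and RAB18 at 0.482 with LC3B and 1.09 with IgG. Totals with mitochondrial genes left 8 of the 13 on opposite sides with intervals excluding 1, without RAB7A, RAB8A, RAB14, RAB23 and RAB32: RAB7A then stood at 1.09 of its input with IgG and RAB32 at 1.12 of its input with LC3B. Trimmed-mean and median-of-ratios scaling each left 12, without RAB23. In TPM 11 point folds were opposite, without RAB31 (0.875 of its input with IgG) and RAB35 (0.998 of its input with LC3B). Summed with PIGBOS1, RAB27A lay above its input in both pull-downs, at 2.003 with LC3B and 1.20 with IgG. These settings were chosen after seeing the data.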

How the results depend on the processing

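No paired analysis was possible because each group holds 1 library. The shares of all genes called under each alternative are not given here. The counts below therefore do not set RAB mRNAs apart from other genes. With LC3B over IgG, 8 members were higher with a filter of 5 CPM and 8 with bounds of 4 and 0.25, which left 3 lower; median-of-ratios scaling lost RAB1A, RAB9B and RAB33B. The median log2 ratio was -0.028 with the 5 CPM filter, which leaves 42 members. Over the LC3B input, totals with mitochondrial genes gave 2 higher (RAB10 and RAB17), 1 lower and a median of 0.31; point folds and TPM each gave 1 higher (RAB17), which was also the 1 higher over both, and 9 lower; bounds of 4 and 0.25 gave 0 lower, and the 5 CPM filter a median of 0.13. Over the IgG input, bounds of 4 and 0.25 gave 3 higher, the 5 CPM filter 6 lower and a median of -0.10, and totals with mitochondrial genes a median of -0.042. Between the inputs, point folds and TPM each gave 1 higher (RAB6D), and totals with mitochondrial genes, bounds of 4 and 0.25 and TPM each gave 0 lower. Of 76 folds of named members, 10 crossed 1 in TPM, 7 with totals that include mitochondrial genes and 3 under each of trimmed-mean and median-of-ratios scaling; all of these were uncalled. In TPM 5 moved by over 1.5 times, of RAB4A, RAB8B and RAB33B, and 0 under each other total or scaling. With alternatives chosen after seeing the data, the 9 members at 0 reads with IgG became 3 at 5 CPM and 19 without a filter, and the 13 on opposite sides of their inputs became 8 with totals that include mitochondrial genes. The remaining counts of calls that were recomputed stayed within 1.5 times. Folds of members with under 30 reads rest on wide intervals.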
